A study of Mus musculus with 2 samples.

Results

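*Agt*, *Ace*, *Enpep*, *Lnpep*, *Mme*, *Agtr1a*, *Agtr1b* and *Agtr2* are the renin-angiotensin system genes described here, 8 of the 32285 genes in the deposited tables of counts. They were taken by gene symbol, and all 8 symbols were found. As background, the precursor protein angiotensinogen, encoded by *Agt*, is cut by renin to angiotensin I, and angiotensin-converting enzyme (ACE) on the cell surface turns that peptide into angiotensin II. Aminopeptidases and neprilysin trim or break down these peptides, and the receptors encoded by the *Agtr* genes pass the signal on, with effects on vessel tone, fluid balance and matrix production. The lung is a classical site of this conversion, because the endothelium of its capillaries carries much ACE.

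The libraries are droplet single-cell RNA-seq of lung from 1 control mouse and 1 mouse with conditional loss of *Hhip* (HHIPCKO) at postnatal day 14. Both mice were *Gli1* CreER/+ with both alleles of *Hhip* floxed, so that Cre acts only in cells with *Gli1* promoter activity. The HHIPCKO mouse had received tamoxifen after birth and the control mouse oil. Stromal and epithelial cells were sorted without CD45 and CD31 surface protein and then combined. The comparison asks how lung cells differ when the Hedgehog inhibitor HHIP is lost from *Gli1* lineage cells. With 1 mouse per group there is no replicate error, no test was made, and every interval below covers counting error only.

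The control file holds 43291709 unique molecular identifiers (UMIs) in 10999 cells and the HHIPCKO file 52338969 UMIs in 12350 cells. After filtering, 10917 control cells and 12115 HHIPCKO cells were kept, with medians of 3537 and 3774 UMIs per cell. The libraries share 193 cell barcodes, which is 1.75% of the control and 1.56% of the HHIPCKO barcodes. The mice also differ in sex markers. *Xist*, the RNA of the inactive X chromosome, was found in 0.110% of control cells and 56.7% of HHIPCKO cells. UMIs of 4 Y-linked genes were found in 32.9% of control cells and in 0 of the 12115 HHIPCKO cells. Sex, animal and treatment therefore cannot be told apart in any difference between the libraries.

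*Hhip* itself checks the labels. In alveolar myofibroblast-like (ALMF-like) and ductal myofibroblast-like (DMF-like) cells together, its level was 1135 UMIs per 1000000 (CPM) in the control and 290 CPM (289.7) in the HHIPCKO library, a log2 ratio of −1.97 (95% interval −2.03 to −1.91). The level was thus lower in the library labelled as the loss, in the cells where it was expected to be lost. Whether the counted reads lie in the floxed part of the gene is not given by the files. In red cell-like cells, which should not express the gene, *Hhip* was at 139 CPM in the control and 46.1 CPM in the HHIPCKO library, lower there as well. UMIs of such genes in this class can come from RNA outside cells or from droplets with more than 1 cell, which were not told apart: Scrublet called 18.0% of its control and 11.5% of its HHIPCKO cells doublets. The class is given below as a comparison and not as a floor, as AT2-like cells had only 3.72 and 1.55 CPM of *Hhip*. In red cell-like cells the 6 red cell markers made up 638056 CPM in the control and 503525 CPM in the HHIPCKO library. This lowers the CPM of all other genes there, and fewer UMIs are left for them than the UMIs per cell given below.

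Clustering gave 39 clusters, of which 25 were named from marker genes and 14 stayed unnamed, with 17.4% of control cells and 17.9% of HHIPCKO cells. The names carry "-like" because many of the markers were picked by the study on these samples. The ALMF-like and DMF-like clusters each had all 10 of their markers in at least 10% of cells in both libraries. Clusters 8 and 9 scored alike for both kinds of myofibroblast and were kept as not split. ALMF-like cells numbered 1086 in the control and 187 in the HHIPCKO library, DMF-like cells 1123 and 1164, and cells not split 597 and 1449. Because this border moves with the library, the 3 sets are also given together, as 2806 control and 2800 HHIPCKO cells. Although the sort was against CD45 and CD31, 157 and 103 endothelial-like cells and 537 and 215 immune-like cells were left.

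**Figure D1:**
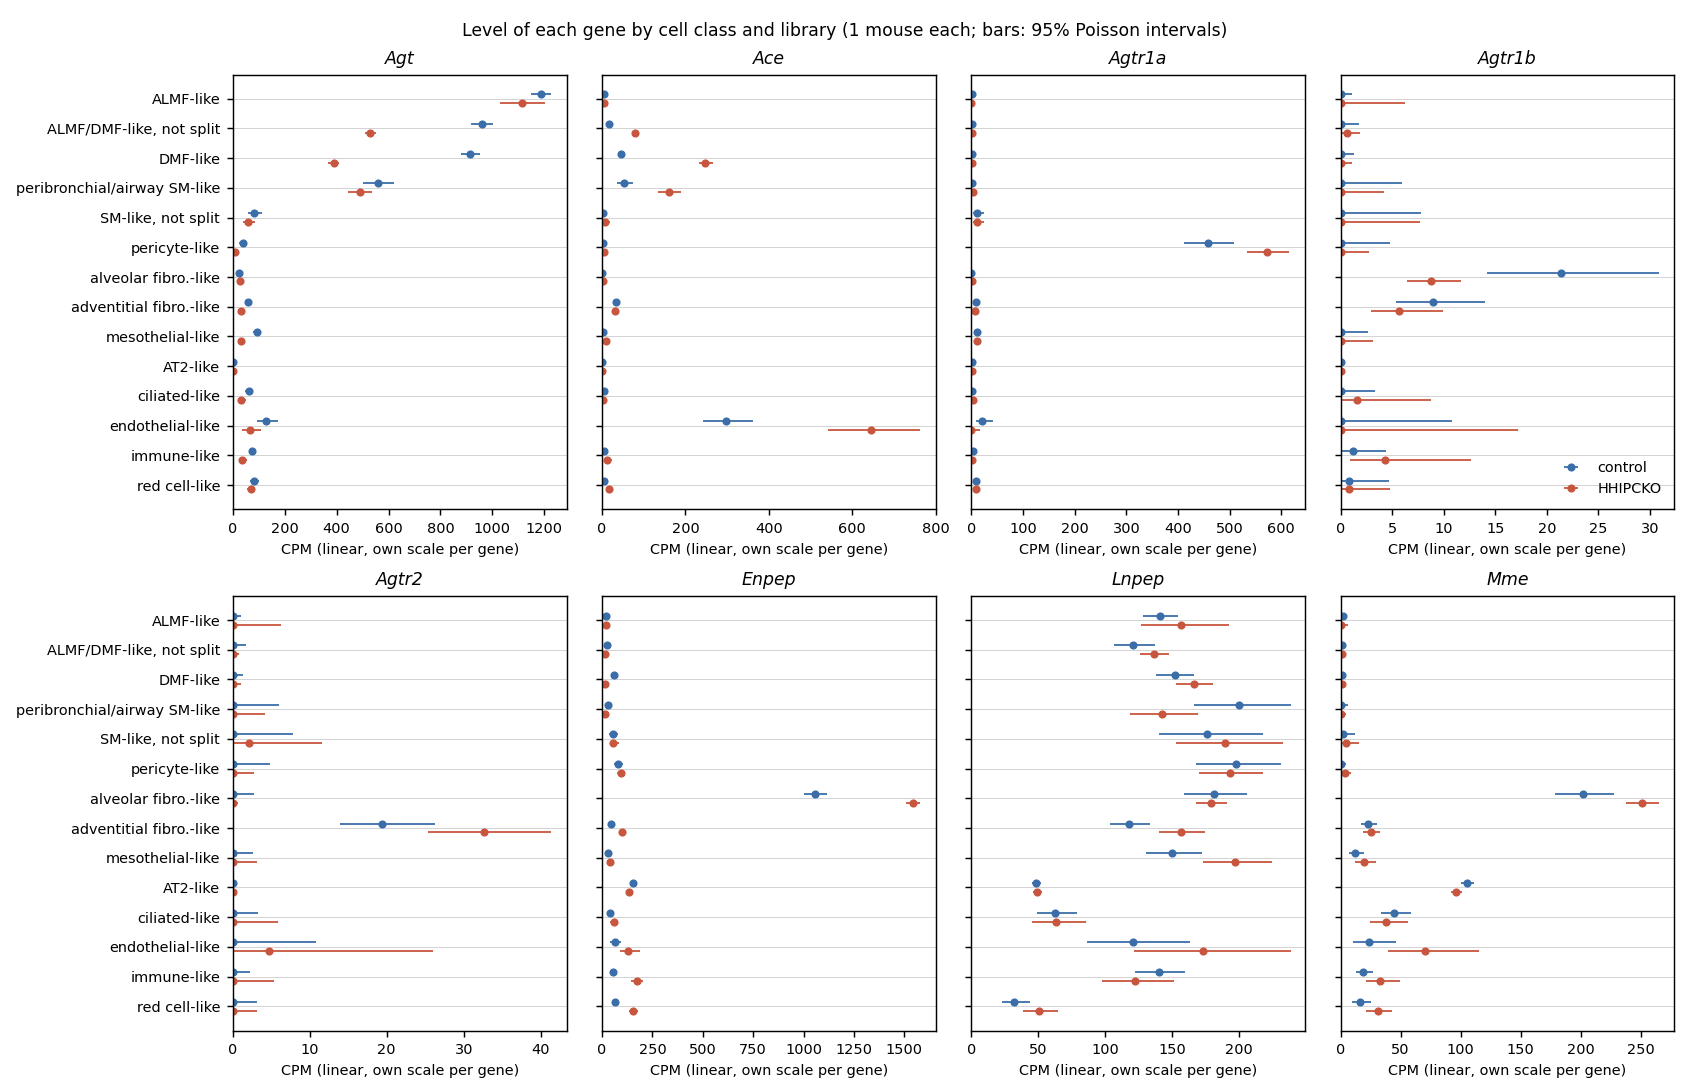
Level of each of the 8 genes in CPM (horizontal axes, linear, a separate scale for each gene) in 14 cell classes (vertical axes), in the control (blue) and HHIPCKO (red) library, 1 mouse each; points come from the pooled UMIs of a class, and bars are 95% Poisson intervals. *Agtr1a* is high in pericyte-like cells, *Enpep* in alveolar fibroblast-like cells and *Agt* in the myofibroblast classes, while *Lnpep* is spread over all classes.

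The genes of the system were laid out over different cells. *Agt* was highest in myofibroblast classes, *Ace* in endothelial-like cells, *Enpep* and *Mme* in alveolar fibroblast-like cells, *Agtr1a* in pericyte-like cells and *Agtr2* in adventitial fibroblast-like cells. Between the libraries, a ratio was called when the gene had at least 50 UMIs over both libraries in a class and differed at least 2-fold. Over 14 classes, 53 ratios of the 8 genes had enough UMIs and 12 were past 2-fold. In ALMF-like and DMF-like cells together, 3 of the 4 genes with enough UMIs were past 2-fold, *Ace* higher and *Agt* and *Enpep* lower, against 5.24% of all genes with enough UMIs. DMF-like cells on their own gave the same 3 of 4, against 4.65% of all genes. The cells not split gave 1 of 4, *Ace*, against 4.76%, and ALMF-like cells 0 of 3, against 5.22%. In peribronchial/airway smooth muscle-like cells 1 of 3 was past 2-fold, *Ace*, against 5.15% of all genes, and in endothelial-like cells 1 of 3, again *Ace*, against 6.13%.

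Alveolar fibroblast-like cells had 1 of 5 past 2-fold, *Agtr1b*, against 4.12% of all genes, and adventitial fibroblast-like cells 1 of 6, *Enpep*, against 3.54%. Immune-like cells had 2 of 4, *Enpep* higher and *Agt* lower, against 5.10%, and mesothelial-like cells 1 of 3, *Agt*, against 2.98%. Several of these lie at levels near those of red cell-like cells, as described below for each gene. No gene of the 8 was past 2-fold in AT2-like cells (0 of 4, against 2.46% of all genes), ciliated-like cells (0 of 4, against 2.25%), pericyte-like cells (0 of 3, against 2.61%) or smooth muscle-like cells not split (0 of 3, against 4.12%). In red cell-like cells 1 of 4 was past 2-fold, *Enpep*, against 25.8% of all genes. There the median log2 ratio of all genes was itself 0.65, so that CPM in that class are shifted between the libraries as a whole, whereas in the other classes the median lay between −0.04 and 0.05. The log2 ratio of *Enpep* in red cell-like cells, 1.28, is less than 2-fold above that median. *Agt* in endothelial-like cells, at −0.983, is just past 2-fold below its class median of 0.0194.

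**Figure D2:**
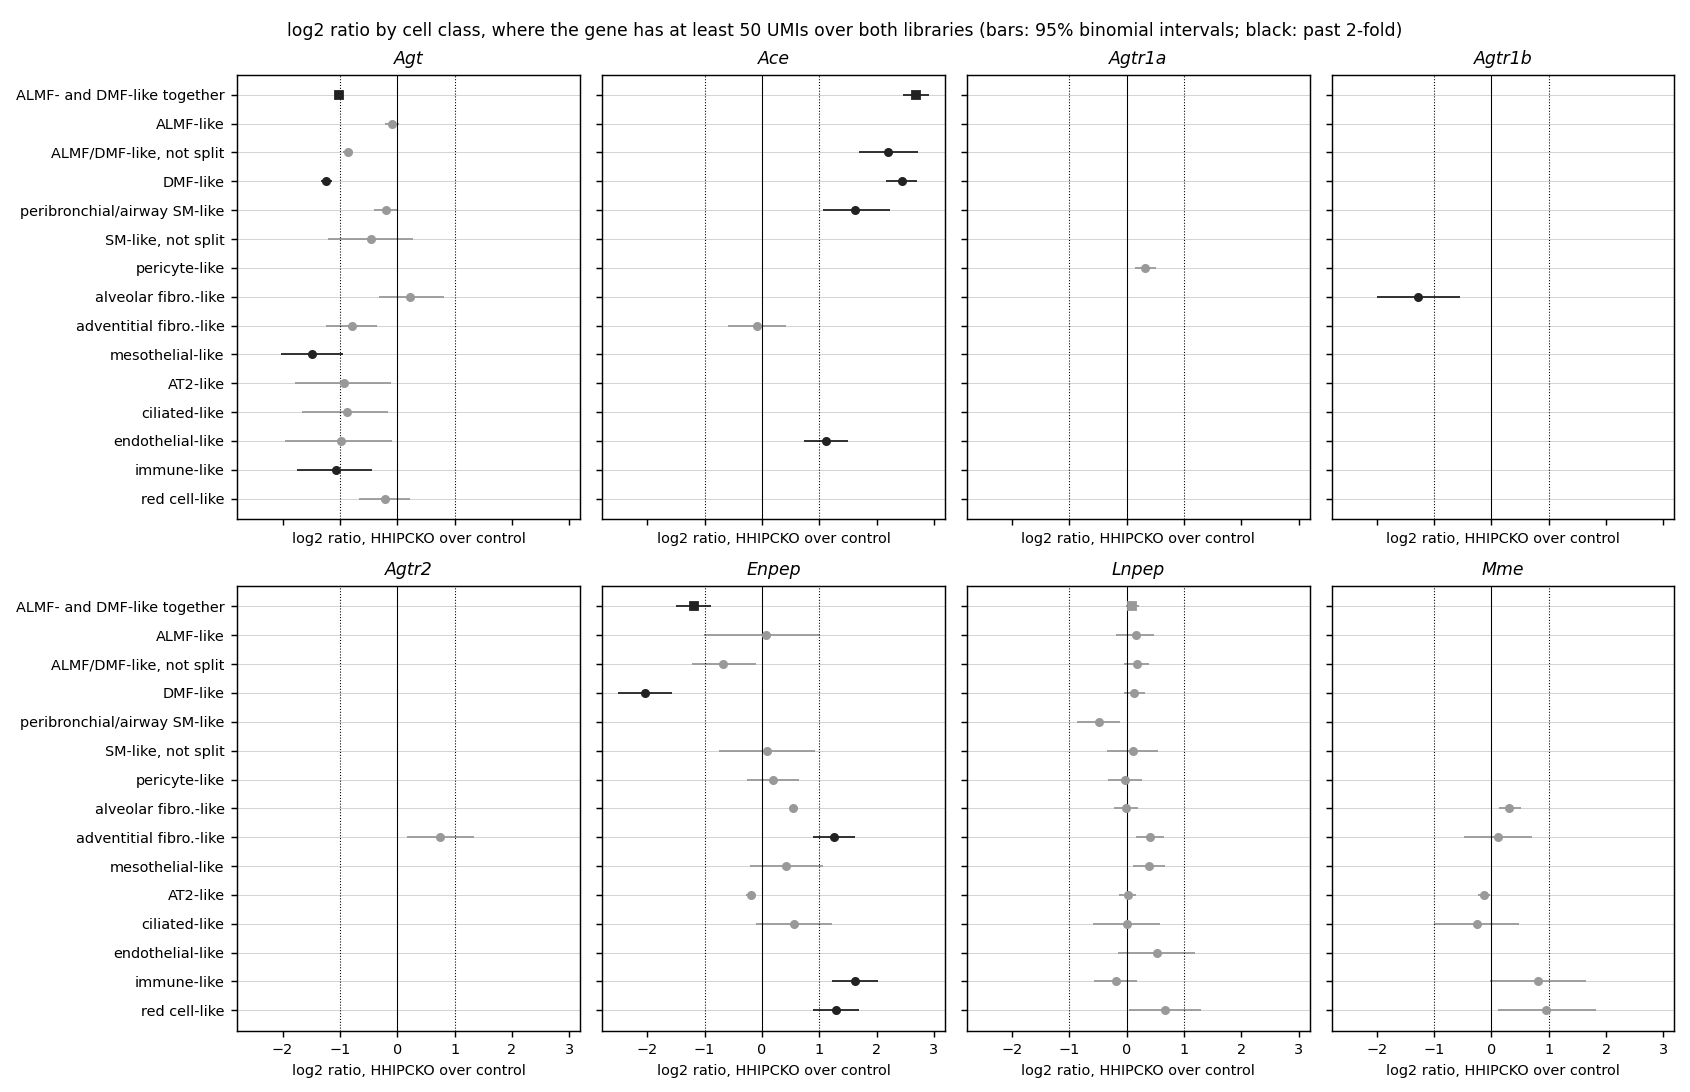
log2 ratio of HHIPCKO over control (horizontal axes) for each of the 8 genes by cell class (vertical axes), where the gene has at least 50 UMIs over both libraries; bars are 95% binomial intervals, dotted lines mark 2-fold, and black points are past it. *Ace* lies to the right in DMF-like cells (2.44) and *Enpep* to the left (−2.03), while all points of *Lnpep* lie within 2-fold.

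*Agt* encodes angiotensinogen, the only known substrate of the system. In the joined myofibroblasts, ALMF-like and DMF-like cells together, *Agt* was at 1035 CPM (95% interval 1014 to 1058) in the control and at 514 CPM (499 to 529) in the HHIPCKO library. The control library was the higher of the pair and the intervals do not overlap. The log2 ratio was −1.01 (−1.06 to −0.96), which sits on the 2-fold line: it fell short of 2-fold under 2 of 9 other ways of processing (−0.99 when scaled by the median ratio of all genes in the class) and was −0.94 in cluster 8 alone. The share of cells with an *Agt* UMI was 85.4% (84.1 to 86.7) in the control and 64.2% (62.4 to 66.0) in the HHIPCKO library, at medians of 2839.5 and 2995.5 UMIs per cell. Thinned to 2000 UMIs per cell, the shares were 80.6% and 56.6%. In red cell-like cells the share was 13.4% in the control and 20% in the HHIPCKO library, at medians of 4998 and 5261.5 UMIs, so the myofibroblast shares are far above the shares there. Cells with an *Agt* UMI held a mean of 3.59 *Agt* UMIs in the control and 2.50 in the HHIPCKO library, so fewer cells had a UMI and each held fewer.

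The lower level of *Agt* was not shared by every myofibroblast class. DMF-like cells had 916 CPM in the control and 388 CPM in the HHIPCKO library (log2 ratio −1.24, −1.33 to −1.14). The cells not split had 960.1 and 529.9 CPM (log2 ratio −0.86, −0.94 to −0.77), and ALMF-like cells 1187 and 1114 CPM (log2 ratio −0.09, −0.21 to 0.03). ALMF-like cells are those that were mostly from the control library, and the HHIPCKO cells that kept this name had nearly the control level. *Agt* was held out of clustering, but *Cyp2e1*, a marker that names the class, ran with it over the classes (correlation 0.96). Cells with this name are thus in part chosen for genes that run with *Agt*, and their level is no independent reading. Peribronchial/airway smooth muscle-like cells had 559 and 488 CPM (log2 ratio −0.20, −0.40 to 0.01). In the control the order was ALMF-like, not split and DMF-like, with overlapping intervals in the last pair, and then peribronchial/airway smooth muscle-like cells. In the HHIPCKO library ALMF-like cells led as well, but peribronchial/airway smooth muscle-like cells (443 to 537) lay above DMF-like cells (368 to 410).

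In the other classes compared, *Agt* was far lower in both libraries. Some unnamed clusters, rich in called doublets, were higher. Cluster 29 (97.3% doublets by Scrublet) had 558 and 368 CPM, cluster 25 (95.3%) 464 and 231 CPM, and cluster 26 (42.9%) 339 and 81.1 CPM. Red cell-like cells had 81.4 CPM in the control and 70.0 CPM in the HHIPCKO library. Mesothelial-like cells had 91.8 and 32.9 CPM, immune-like cells 75.2 and 36.0 CPM, and endothelial-like cells 129 and 65.5 CPM. The mesothelial-like and immune-like ratios are past 2-fold, with log2 values of −1.48 and −1.06, at levels near or below those of red cell-like cells. The immune-like clusters differed. Cluster 15 had 79.4 and 45.3 CPM, and cluster 30, with 84 and 17 cells, 104 and 97.4 CPM. Clusters 32 and 33 held 12 and 10 control UMIs, but 0 and 1 HHIPCKO UMIs. The *Agt* UMIs of both classes lay in few cells, 12.0% of control mesothelial-like and 7.82% of control immune-like cells, with means of 3.18 and 2.95 UMIs in these. In the HHIPCKO library the shares were 5.09% and 6.51%, with means of 2.29 and 1.79 UMIs. Scrublet called 28.5% and 21.2% of the control cells of these classes doublets, and the 10 ALMF markers, summed, were also lower in the HHIPCKO library, at 324 and 213 CPM in mesothelial-like and 304 and 192 CPM in immune-like cells. The markers did not all run with *Agt*: the DMF markers had 365 and 441 CPM in immune-like cells, and the ALMF markers 447 and 454 CPM in endothelial-like cells. Whether free RNA, doublets or expression gave the UMIs was not tested. AT2-like cells held nearly no *Agt*, at 2.37 and 1.25 CPM. RNA of other cell types was itself uneven: the 9 AT2 markers, summed, made up 39856 CPM in control and 57556 CPM in HHIPCKO red cell-like cells but 2431 and 1544 CPM in the joined myofibroblasts, where Scrublet called 1.14% and 1.29% of cells doublets.

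*Ace* encodes the converting enzyme that makes angiotensin II and also breaks down bradykinin. In the joined myofibroblasts *Ace* was at 21.8 CPM (18.7 to 25.2; 181 UMIs) in the control and at 140.3 CPM (133 to 148; 1224 UMIs) in the HHIPCKO library. The HHIPCKO library was the higher of the pair, opposite to *Agt* in the same cells, and the intervals do not overlap. The log2 ratio was 2.69 (2.46 to 2.92). The share of cells with an *Ace* UMI was 5.42% (4.61 to 6.32) in the control and 27.5% (25.9 to 29.2) in the HHIPCKO library, and 3.23% and 20.5% after thinning. Red cell-like cells gave 2.76% and 6.0%, and 0.966% and 2.67% after thinning, so the control share is closer to the share there than the HHIPCKO share is.

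By class, DMF-like cells had 45.8 CPM of *Ace* in the control and 248 CPM in the HHIPCKO library (log2 ratio 2.44, 2.17 to 2.71). The cells not split had 17.3 and 79.0 CPM (log2 ratio 2.19, 1.69 to 2.73). ALMF-like cells had 12 and 2 UMIs, or 3.62 and 3.37 CPM, below the 5.03 and 15.4 CPM of red cell-like cells. In both libraries *Ace* was thus higher in DMF-like than in ALMF-like cells, the latter being only 187 cells in the HHIPCKO library. Cluster 9, one of those not split, scored 0.269 for ALMF and 0.221 for DMF and had 48.8 CPM in the HHIPCKO library. The ALMF-like name therefore does not cover all cells with ALMF markers. Peribronchial/airway smooth muscle-like cells had 52.0 and 160.5 CPM (log2 ratio 1.62, 1.06 to 2.23). The markers of that class shifted as well: the median share of cells with each of its own 8 markers was 61.0% and 33.1%, and the DMF markers summed to 3979 and 5517 CPM and the ALMF markers to 681 and 1099.6 CPM. Cluster 18, which makes up the class, scored nearly as high for DMF (0.397) as for its own name (0.444). Adventitial fibroblast-like cells had nearly level values, 33.1 and 31.2 CPM, with a log2 ratio of −0.09 (−0.59 to 0.42). Endothelial-like cells led in both libraries. Below them the order differed: in the control, adventitial fibroblast-like cells (25.8 to 41.9) lay above the cells not split (12.1 to 24.0), and in the HHIPCKO library they lay below them (24.1 to 39.7, against 71.1 to 87.4).

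Endothelial-like cells, the class in which lung ACE is best known, had *Ace* at 297 CPM (242 to 361) in 157 control cells and at 645 CPM (542 to 763) in 103 HHIPCKO cells. The log2 ratio was 1.12 (0.74 to 1.5). The share of cells with an *Ace* UMI was 38.9% and 59.2%. After thinning it was 20.4% (10.6 to 33.5) of 54 cells and 24% (9.36 to 45.1) of 25 cells, with overlapping intervals. This class is what a sort against CD31 left, and it is made of 3 clusters that the libraries fill unequally. Cluster 28 had 516 CPM (407 to 646) in the control and 719 CPM (566 to 899.6) in the HHIPCKO library, with overlapping intervals. Cluster 31, led by *Car4* among others, had 211 CPM (136 to 311) and 693 CPM (532 to 889). Cluster 36, led by *Ccl21a* and other genes of lymphatic vessels, had 0 UMIs in its 37 control cells and only 9 HHIPCKO cells. Scrublet called 20.4% and 17.5% of the cells of the class doublets, and markers of other classes also differed in it: alveolar fibroblast markers summed to 738 and 2105 CPM, DMF markers to 426 and 617 CPM, AT2 markers to 79739 and 53728.5 CPM and immune markers to 73.5 and 0 CPM. How far these or the unequal filling of the clusters enter the difference in the whole class was not tested.

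Markers of other cell types were summed in the same cells. The 10 endothelial markers summed to 9841 CPM in control and 10496 CPM in HHIPCKO endothelial-like cells. In ALMF-like and DMF-like cells together they summed to 7.11 CPM (8 of 10 detected, *Cdh5* and *Emcn* at 0) in the control and to 6.65 CPM (9 of 10 detected, *Emcn* at 0) in the HHIPCKO library, with *Egfl7* the most abundant at 2.65 and 1.83 CPM. These levels are near 0 and alike in both libraries. Other lists were not alike. The 10 alveolar fibroblast markers had 99.5 CPM in the control and 329 CPM in the HHIPCKO library in the joined myofibroblasts (106 and 440.3 CPM in the cells not split), and the 10 DMF markers had 3271 and 5118 CPM. The 10 ALMF markers went the other way, at 2986 CPM (2949 to 3023) and 2436 CPM (2403 to 2469). Marker levels in the joined cells thus differed between the libraries along with those of *Agt*, *Ace* and *Enpep*, and the cause was not tested.

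**Figure D3:**
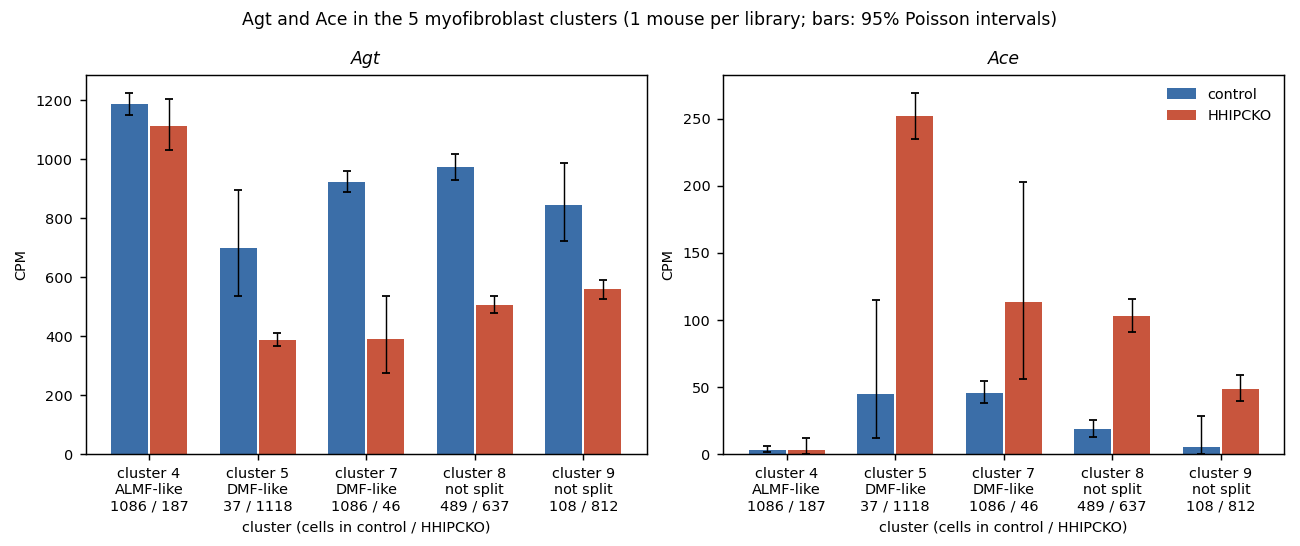
Level of *Agt* (left) and *Ace* (right) in CPM (vertical axes, linear from 0) in the 5 myofibroblast clusters (horizontal axes, with the number of cells in each library), in the control (blue) and HHIPCKO (red) library, 1 mouse each; error bars are 95% Poisson intervals. *Agt* is level in cluster 4 (1187 and 1114) and lower in the HHIPCKO library in the others, and *Ace* is higher in the HHIPCKO library in clusters 5, 7, 8 and 9.

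Since the libraries fill the clusters differently, *Agt* and *Ace* were also read within each of the 5 clusters. Cluster 7 is mainly control (1086 and 46 cells) and cluster 5 mainly HHIPCKO (37 and 1118 cells), and both are DMF-like. In cluster 7 the log2 ratio of *Agt* was −1.24 (−1.74 to −0.78) and that of *Ace* 1.30 (0.27 to 2.19). In cluster 5 the log2 ratio of *Agt* was −0.85 (−1.21 to −0.45) and that of *Ace* 2.48 (1.12 to 4.36). Cluster 8 is the evenest, with 489 and 637 cells, and is led by the immediate early genes *Fos*, *Junb* and *Egr1*. There *Agt* had 972 and 507 CPM (log2 ratio −0.94, −1.04 to −0.84), and *Ace* 18.6 and 103 CPM (log2 ratio 2.47, 1.96 to 3.02). In cluster 9 the log2 ratio of *Agt* was −0.60 (−0.83 to −0.35), and *Ace*, with 1 control UMI behind its 5.16 CPM, was at 48.8 CPM in the HHIPCKO library. The opposite directions of both genes thus held in each of clusters 5, 7, 8 and 9, and in cluster 4 neither gene differed beyond its interval.

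Whether *Agt* and *Ace* share cells was read in cells thinned to 2000 UMIs. In the HHIPCKO library, 46.3% (41.7 to 50.9) of the 467 joined myofibroblast cells with an *Ace* UMI also had an *Agt* UMI, against 59.3% (57.0 to 61.6) of the 1810 cells without one. In the control library the shares were 81.1% (70.3 to 89.3) of 74 cells and 80.6% (78.9 to 82.2) of 2218 cells. The joined set mixes classes with unlike levels of both genes. Within DMF-like cells of the HHIPCKO library the shares were 46.2% (40.8 to 51.8) of 333 and 51.5% (47.5 to 55.6) of 615, with overlapping intervals.

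*Enpep* encodes aminopeptidase A, which removes the first residue of angiotensin II. It led in alveolar fibroblast-like cells, at 1057 CPM (1002 to 1114) in the control and 1544 CPM (1510.3 to 1578) in the HHIPCKO library, with the HHIPCKO library higher and no overlap. The log2 ratio was 0.55 (0.46 to 0.63), short of 2-fold. The share of cells with an *Enpep* UMI was 81.8% and 88.2%, and 83.9% and 90.5% after thinning, against 10.6% and 25.5%, or 5.31% and 15% after thinning, in red cell-like cells. This class numbered 418 cells in the control and 1552 in the HHIPCKO library. AT2-like cells had 154 and 134 CPM (log2 ratio −0.20, −0.28 to −0.11), next in the control but below immune-like and red cell-like cells in the HHIPCKO library. The libraries fill the AT2-like clusters unequally (761 and 2206 cells in cluster 1, 2224 and 618 in cluster 2), but *Enpep* was lower in the HHIPCKO library in both, at 169 and 137 CPM and at 147 and 119 CPM. By number of *Enpep* UMIs, AT2-like cells held more in the control (2270, against 1387 in alveolar fibroblast-like cells) and fewer in the HHIPCKO library (2252, against 8133).

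At lower levels *Enpep* went both ways. DMF-like cells had 59.6 CPM (173 UMIs) in the control and 14.6 CPM (50 UMIs) in the HHIPCKO library, a log2 ratio of −2.03 (−2.52 to −1.57). Red cell-like cells stood at 63.8 and 155 CPM, so the DMF-like levels are no higher than the level there, yet they differ in the opposite direction. By cluster, *Enpep* had 90.1 and 13.5 CPM in DMF-like cluster 5, with 37 control cells, but 58.6 and 51.4 CPM in DMF-like cluster 7, with 46 HHIPCKO cells (log2 ratios −2.74, −3.84 to −1.44, and −0.19, −1.83 to 1.06). The joined myofibroblasts had 33.7 and 14.8 CPM, also below red cell-like cells. Their other clusters were not alike in log2 ratio. It was −0.99 (−1.68 to −0.32) in cluster 8, 0.06 (−1.02 to 1.00) in cluster 4 and 1.71 (−0.86 to 7.06) in cluster 9. Immune-like cells had 55.8 and 171 CPM, close to red cell-like cells in both libraries. The 10 alveolar fibroblast markers, summed, had 361 and 1314 CPM in immune-like and 362 and 1322 CPM in red cell-like cells, so RNA of the leading class was also higher there in the HHIPCKO library. Adventitial fibroblast-like cells had 42.1 and 100.3 CPM, also below red cell-like cells in each library. There the alveolar fibroblast markers summed to 1279 and 1579 CPM and the DMF markers to 620 and 1065 CPM, while the AT2 markers had 2020 and 1919 CPM. Within that class, cluster 10 had 21.3 and 60.2 CPM and cluster 22 had 76.2 and 262 CPM, so cluster 22 lay above the red cell-like level in the HHIPCKO library (215 to 316, against 134 to 180) and overlapped with it in the control. The red cell-like level counts the red cell markers in its total. Without them it would be higher, and the order was not computed.

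*Lnpep* encodes insulin-regulated aminopeptidase, a binding protein for the angiotensin IV fragment that also cuts oxytocin and vasopressin. It was the evenly spread gene of the 8. Over both libraries 11 of the 14 classes lay between 132 and 195 CPM, and ciliated-like (62.8), AT2-like (48.9) and red cell-like cells (41.0) lay below. Neighbours among those 11 overlapped in their intervals. The joined myofibroblasts had 139.7 CPM in the control and 149.7 CPM in the HHIPCKO library, a log2 ratio of 0.10 (−0.02 to 0.21). Over the 14 classes its log2 ratio ranged from −0.49 in peribronchial/airway smooth muscle-like cells to 0.66 in red cell-like cells.

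*Mme* encodes neprilysin, a membrane peptidase that turns angiotensin I into angiotensin-(1-7) and breaks down kinins and natriuretic peptides. It led in alveolar fibroblast-like cells at 202 CPM (178 to 228) in the control and 251 CPM (238 to 265) in the HHIPCKO library, with the HHIPCKO library higher. The log2 ratio was 0.31 (0.12 to 0.51). AT2-like cells had 105.6 and 96.5 CPM (log2 ratio −0.13, −0.23 to −0.03). In cluster 1, filled mainly by HHIPCKO cells, the values were 113 and 99.5 CPM, and in cluster 2, filled mainly by control cells, 102 and 82.0 CPM. Because AT2-like cells are many, they held more *Mme* UMIs than alveolar fibroblast-like cells in the control (1561 against 265) and in the HHIPCKO library (1622 against 1323). The share of alveolar fibroblast-like cells with an *Mme* UMI was 41.9% and 51.4%, and 32.8% and 36.7% after thinning, against 5.99% and 12.5% in red cell-like cells before thinning. In the joined myofibroblasts *Mme* had 11 and 10 UMIs, or 1.33 and 1.15 CPM, and in pericyte-like cells 0 and 5 UMIs. The 9 immune markers summed to 5310 CPM in control and 4692 CPM in HHIPCKO immune-like cells, led by *Cd79a*. *Mme* itself was at 18.8 and 33.1 CPM there, near the 15.9 and 30.7 CPM of red cell-like cells. In alveolar fibroblast-like cells the immune markers summed to 8.38 and 1.90 CPM.

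*Enpep* and *Mme* thus led in the same class, and their levels ran together over the classes. Over 30 points, 15 named classes in each of the libraries, the correlation of log2 levels was 0.82 between *Enpep* and *Mme*, the highest among the 28 pairs of the 8 genes. *Agt* ran opposite to both, at −0.64 with *Enpep* and −0.68 with *Mme*. The points share libraries, RNA from other cells and, in part, neighbouring cell types. In thinned alveolar fibroblast-like cells of the HHIPCKO library, 92.2% (89.3 to 94.5) of cells with an *Mme* UMI and 89.5% (87.1 to 91.6) of those without had an *Enpep* UMI. In the control the shares were 80.4% (71.4 to 87.6) and 85.6% (80.1 to 90.1).

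*Agtr1a* encodes the main receptor of angiotensin II, which contracts vessels. Among the named classes it was nearly a pericyte gene, with 88.6% of its UMIs in these found in pericyte-like cells. Over all kept cells, unnamed clusters included, it had 552 UMIs in the control and 1073 in the HHIPCKO library. Of these, 354 and 760 lay in pericyte-like cells. There it was at 458 CPM (411 to 508) in the control and 573 CPM (533 to 616) in the HHIPCKO library, a log2 ratio of 0.32 (0.14 to 0.51). The HHIPCKO library was the higher, short of 2-fold. The share of pericyte-like cells with a UMI was 54.3% (49.5 to 59.1) and 60.3% (56.6 to 63.9), at medians of 1714 and 1808 UMIs, against 3.69% and 4.0% in the deeper red cell-like cells. Endothelial-like cells had 7 UMIs in the control and 0 in the HHIPCKO library, and no class but pericyte-like cells was above 20.6 CPM in either library. The joined myofibroblasts, where *Agt* was high, had 10 *Agtr1a* UMIs in each library, or 1.205 and 1.146 CPM.

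*Agtr1b* is the rodent copy of that receptor gene. Transcripts of both genes shared 93 sequences of 31 bases, which is 3.26% of those of *Agtr1a* and 4.35% of those of *Agtr1b*, and no other pair among the 8 genes shared any. It was sparse, with 103 UMIs in the control and 121 in the HHIPCKO library over all kept cells. In alveolar fibroblast-like cells it was at 21.3 CPM (28 UMIs) and 8.73 CPM (46 UMIs), with the control higher and a log2 ratio of −1.29 (−2.0 to −0.56). Adventitial fibroblast-like cells had 8.99 and 5.68 CPM, and pericyte-like cells 0 UMIs in both libraries, which allows up to 3.88 and 2.26 CPM. Red cell-like cells held 1 UMI in each library. The copies had different leading classes, pericyte-like for *Agtr1a* and alveolar fibroblast-like for *Agtr1b*, but in adventitial fibroblast-like cells *Agtr1a* was found as well, at 8.05 and 6.15 CPM (17 and 13 UMIs).

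*Agtr2* encodes the second receptor type of angiotensin II, known for high levels in fetal mesenchyme. Over all kept cells, unnamed clusters included, *Agtr2* had 51 UMIs in the control and 91 in the HHIPCKO library. Of its UMIs in named classes, 96.5% lay in adventitial fibroblast-like cells. There it was at 19.4 CPM (13.9 to 26.3, from 41 UMIs) in the control and 32.6 CPM (25.4 to 41.3, from 69 UMIs) in the HHIPCKO library. The log2 ratio was 0.75 (0.17 to 1.34), with the HHIPCKO library higher and overlapping intervals of the levels. Both clusters of the class held it, at 13.7 and 26.6 CPM in cluster 10 and at 28.7 and 57.1 CPM in cluster 22. Red cell-like cells had 0 UMIs, which allows up to 2.52 and 2.56 CPM, and the joined myofibroblasts 0 UMIs, which allows up to 0.361 and 0.344 CPM. *Agtr2* lies on the X chromosome and the libraries differ in *Xist*, so sex and the loss of *Hhip* cannot be told apart here.

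Beyond the 8 genes, a list of 31 genes of the pathway also held renin, its receptor, other angiotensin peptidases and further receptors. In ALMF-like and DMF-like cells together, 15 of the 31 had enough UMIs, and *Ace*, *Agt* and *Enpep* were those past 2-fold, against 5.24% of all genes. The median log2 ratio of the 15 was −0.04, beside −0.02 over all 11170 genes with enough UMIs. Over the other classes, genes outside the 8 passed 2-fold in 3 of them. These are adventitial fibroblast-like, immune-like and ciliated-like cells, where 19, 18 and 14 of the 31 had enough UMIs. Of all genes, 3.54%, 5.10% and 2.25% were past 2-fold there. *Lvrn*, an aminopeptidase also called laeverin, had 8.52 and 31.2 CPM in adventitial fibroblast-like cells (log2 ratio 1.87, 1.10 to 2.71). *Cma1* and *Mcpt4*, mast cell chymases, had 54.0 and 242 CPM (log2 ratio 2.17) and 81.8 and 257 CPM (log2 ratio 1.65) in immune-like cells, but over all kept cells their UMIs came from 4 and 5 control cells and 3 and 4 HHIPCKO cells. *Rnpep*, aminopeptidase B, had 59.1 and 28.3 CPM in ciliated-like cells (log2 ratio −1.06, −1.90 to −0.29).

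Renin and the receptors of angiotensin-(1-7) were nearly silent in these cells. *Ren1*, which encodes renin, had 4 UMIs in the control and 10 in the HHIPCKO library. The angiotensin-(1-7) receptor gene *Mas1* had 4 UMIs in each library, and *Mrgprd* 0 and 2. Among kinin receptors, *Bdkrb1* was level in adventitial fibroblast-like cells, at 21.3 and 20.8 CPM. *Bdkrb2* had 2 and 26 UMIs in the joined myofibroblasts, or 0.241 and 2.98 CPM, a log2 ratio of 3.63 (1.63 to 6.75) that rests on too few UMIs to be called. The receptor-binding proteins *Agtrap* and *Mtus1* had log2 ratios of 0.42 (0.07 to 0.79) and −0.02 (−0.15 to 0.12) there, and the renin receptor gene *Atp6ap2*, which is X-linked, 0.09 (−0.03 to 0.22).

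Genes whose levels over the same 30 points were most like each of the 8 were ranked among 13927 genes. For *Agt* these were *Cyp2e1* (correlation 0.96), *6330403K07Rik* (0.95) and *Ccdc3* (0.94), of which *Cyp2e1* is one of the markers used to name ALMF-like cells. For *Ace* they were *Rgs9* (0.87), *Gm47664* (0.83) and *Mpped2* (0.82). For *Enpep* they were *Slc7a10* (0.83), a marker used for alveolar fibroblast-like cells, *Slc47a1* (0.83) and *Phex* (0.83), and for *Mme* *Cpm* (0.91), *Cracr2a* (0.86) and *Tmem163* (0.84). Among the receptors, *Agtr1a* was most like *Cstdc2* (0.97), *Adcy8* (0.97) and *Wfdc6b* (0.96), *Agtr2* like *Ccl8* (0.99), *Shisa3* (0.94) and *Dlg2* (0.93), and *Agtr1b* like *Mmp19* (0.92), *Slc27a3* (0.92) and *Frem1* (0.90). *Lnpep* was most like the widely expressed *Ctso* (0.90), *Anapc5* (0.90) and *Mettl9* (0.89).

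In the mouse genome (mm10, GRCm38) the 8 genes lie on 6 chromosomes. *Agt* (ENSMUSG00000031980) lies on chromosome 8 from 124556534 to 124569706 and *Ace* (ENSMUSG00000020681) on chromosome 11 from 105967945 to 105989964. *Agtr1b*, *Enpep* and *Mme* share chromosome 3 but lie far apart, *Agtr1a* lies on chromosome 13, *Lnpep* on 17 and *Agtr2* on X. Promoters from RefSeq (GRCm38.p6) were found for 7 of the 8 genes and not for *Agtr1a*. The 250 bases before the start of *Agt* and of the first *Ace* transcript are shown because these genes moved in opposite directions in the same cells. Both strands were searched for the GLI consensus GACCACCCA, the motif of the Hedgehog pathway, which is in 0.225% of 32851 promoter windows of this length, and for the TATA box TATAAA, which is in 12.4%. Capitals mark the letters TATAAA, which in *Ace* lie on the reverse strand.
*Agt*, chr8:124569707-124569956, minus strand: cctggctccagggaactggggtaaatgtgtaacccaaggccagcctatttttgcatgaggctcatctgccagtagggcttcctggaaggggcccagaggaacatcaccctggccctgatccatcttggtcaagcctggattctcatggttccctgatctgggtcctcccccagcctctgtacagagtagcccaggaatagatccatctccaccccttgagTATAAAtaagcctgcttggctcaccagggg
*Ace*, chr11:105967698-105967947, plus strand: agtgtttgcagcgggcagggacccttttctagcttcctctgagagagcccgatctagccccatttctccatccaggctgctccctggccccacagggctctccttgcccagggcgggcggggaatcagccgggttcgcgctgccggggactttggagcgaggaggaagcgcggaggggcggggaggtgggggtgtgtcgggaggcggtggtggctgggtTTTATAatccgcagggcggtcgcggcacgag
Each window holds the letters TATAAA 1 time, in *Ace* on the reverse strand, and whether they act as a TATA box was not tested. The GLI letters are in neither window nor in any of the 10 windows of the 7 genes. That says only that these letters are not in these windows.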

How the data were processed

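The authors counted UMIs per gene and cell with Cell Ranger on mm10, version 6.1.0 per the file headers and 3.1.0 per the labels, and the deposited values are raw counts of called cells. The sample labels name a 3′ kit and the study's methods a 5′ kit, and the kit was not settled. Cells below 200 or above 6000 genes, or above 10% of UMIs from mitochondrial genes, were left out. For clustering, counts per cell were scaled to 10000, and 2000 variable genes, 30 principal components, 20 neighbours and Leiden resolution 1 were used on both libraries together. All 31 pathway genes, *Hhip*, *Xist* and further genes were held out of clustering. A name needed a mean excess of 0.2 in the share of cells with each marker; this and the other naming thresholds were set after the clusters had been seen. The 8 genes and all lists were chosen with earlier results of these data known.

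The UMIs of all cells in a class were pooled by library. Levels carry exact Poisson intervals, shares and log2 ratios exact (Clopper-Pearson) binomial intervals, at 95%. A count of 0 allows 3 counts. Classes with under 50 cells in a library were not compared, and thinning left out 2206 control and 2383 HHIPCKO cells with fewer than 2000 UMIs. Correlations are Pearson's, of log2(CPM + 10). Named genes are the 8, the pathway genes past 2-fold and its receptors, and for each of the 8 the 3 most alike genes among those with at least 100 UMIs; *Ren1* and *Atp6ap2*, and values by cluster, were added after they were seen. Doublets were kept, and leaving out those called by Scrublet (11.4% and 13.2% of cells) was an alternative, beside other filters, resolutions, clusterings and scalings. Gene positions come from GENCODE vM21. The counting steps were tested on simulated data. Python 3.11.15, numpy 2.4.6, scipy 1.17.1, scikit-learn 1.9.0 and leidenalg 0.10.2 were used.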

Additional observations from a re-analysis of the deposited data

Results flagged for a closer look

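*Enpep* went in opposite directions in different classes. Its log2 ratio of HHIPCKO over control was −2.03 in DMF-like cells, but 1.25 in adventitial fibroblast-like, 1.62 in immune-like and 1.28 in red cell-like cells. With 1 mouse per group the difference between these classes was not tested. In red cell-like cells the median of all genes was shifted by 0.65, and *Enpep* lay less than 2-fold above it. The libraries sit mostly in different DMF-like clusters: the log2 ratio was −2.74 (−3.84 to −1.44) in cluster 5, with 37 control cells, and −0.19 (−1.83 to 1.06) in cluster 7, with 46 HHIPCKO cells. In immune-like and red cell-like cells the summed alveolar fibroblast markers were higher in the HHIPCKO library too, and whether free RNA, doublets or expression gave these UMIs was not tested.

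*Agtr1b* was highest in cells that carry no class name. In unnamed cluster 14, which scored alike for alveolar and adventitial fibroblasts and is led by *Rbp4* and *Igfbp6*, it was at 34.2 CPM (24.2 to 46.9) in 268 control cells and 34.7 CPM (24.8 to 47.2) in 272 HHIPCKO cells. These cells enter none of the values by class, and their level is above that of the alveolar fibroblast-like cells of both libraries (21.3 and 8.73 CPM), with overlapping intervals in the control and none in the HHIPCKO library.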

How the results depend on the processing

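Over 58 values under alternative settings, 49 stayed within the interval of the reported value, or within 1.5 times of it for a count. The other 9 moved outside. Of the log2 ratios, 0 changed sign, and the counts have no direction. Of the 9, 3 came from settings chosen after seeing the data: over only the clusters named ALMF-like or DMF-like, and over only the cluster led by immediate early genes. *Agt* in ALMF-like and DMF-like cells together was −1.10 over the former and −0.94 over the latter. *Ace* was 3.18 over the former, 2.42 with no cell filter and 2.45 without doublets. Over 9 other settings, *Agt* fell short of 2-fold in 2, with no cell filter (−1.0, just short before rounding) and scaled by the median (−0.99). *Agtr1a* in pericyte-like cells was 0.53 after thinning, and *Enpep* in alveolar fibroblast-like cells 0.68 without doublets and 0.74 with the pathway genes kept in clustering, which also gave 0.63 for *Mme*. The cause was not tested in any of these. The number of ratios past 2-fold, 12 of 53 as reported, ranged from 9 to 14, but over unlike numbers of ratios with enough UMIs: 9 of 34 after thinning and 10 of 37 without doublets. As reported, the share of all genes past 2-fold ran from 2.25% in ciliated-like to 25.8% in red cell-like cells. That share was not computed for the other settings. No paired analysis was possible because each group is 1 mouse. Values of *Agtr1b*, *Agtr2*, *Bdkrb2* and *Ren1* rest on few UMIs.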
